A study of Xenopus laevis with 6 samples.

Results

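Molecular chaperones, protein folding enzymes of the endoplasmic reticulum (ER), peroxide and thioredoxin enzymes and the regulators that control them were compared between primordial germ cells (PGCs) and endoderm cells of Xenopus laevis embryos. The genes were chosen by symbol, as every row of the v9.1 count table whose name belongs to the heat shock protein, J-domain, chaperonin, prefoldin, BAG, disulfide isomerase, calnexin and calreticulin, thioredoxin, peroxiredoxin, superoxide dismutase, heat shock factor or unfolded protein response families. This gave 133 gene models of 83 symbols, out of 10364 gene models of 6808 symbols in the table. By the compartment in which their proteins are known to work, 62 were cytosolic or nuclear, 30 belonged to the ER and 12 to mitochondria. By function, 19 were set apart as redox genes whatever their compartment, and 9 encoded other stress regulators. The redox group thus holds prdx4 of the ER and txn2 of mitochondria. The ER group includes xbp1 as a regulator of ER folding, though it encodes a transcription factor. All these groups are called compartments below. The remaining gene model, txnl4a, matched by name only and encodes a spliceosome protein.

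The samples were 3 RNA libraries of PGCs and 3 of endoderm, both from embryos of stages 12-14, when gastrulation ends and the neural plate forms. The labels give no treatment, genotype or strain for either group. PGCs, the precursors of eggs and sperm, carry germ plasm inherited from the vegetal pole of the egg and lie among endoderm cells at these stages. The labels' protocols describe aliquots of each ribosomal-RNA-depleted sample and do not state separate collections of cells, so the p-values reflect spread among libraries alone, and that spread may be technical.

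Chaperones bind unfolded or nascent proteins and release them as they fold. Hsp70 proteins do so in cycles of ATP hydrolysis that J-domain proteins start and nucleotide exchange factors complete, Hsp90 acts on late folding clients, and the ring-shaped chaperonin TRiC encloses actin, tubulin and other proteins that prefoldin delivers. In the ER, the Hsp70 protein BiP, disulfide isomerases and the lectins calnexin and calreticulin fold secreted and membrane proteins, and a load of unfolded protein activates the transcription factors Xbp1, Atf6 and Atf4.

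Total counts were 14.5 to 16.9 M in PGC libraries and 9.94 to 28.3 M in endoderm libraries. Levels are given in CPM, which are counts per M of a library size corrected for composition, and differences as the log2 ratio (log2 fold change) of PGC to endoderm with its standard error, from edgeR's quasi-likelihood test, adjusted over all gene models at 0.05. Transcript lengths were not used, so levels are compared between cell types and not between genes. In bulk RNA, fewer cells of a type and less RNA per cell cannot be told apart. Summed over 8 gene models, PGC marker genes ranged over 135190 to 136830 CPM in PGCs and 1268 to 1334 CPM in endoderm, and 6 of the 8 were higher in PGCs while a gene model of the germ line helicase ddx4 was lower. The 11 endoderm marker gene models summed to 2237 to 2443 CPM in PGCs and 3101 to 3337 CPM in endoderm, with 7 called lower and 3 called higher in PGCs. Markers of other germ layers were low but higher in PGC libraries, with 222 to 291 CPM in PGCs against 76.9 to 116.6 CPM in endoderm for 9 mesoderm gene models (4 called higher), and 241.7 to 284 CPM in PGCs against 18.3 to 39.6 CPM in endoderm for 6 ectoderm and neural ones (6 called higher), among which sox2 had 1 count over the endoderm libraries. The 10 most counted gene models took 17.9 to 18.1% of counts in PGC libraries and 9.0 to 9.65% in endoderm libraries. The part of these differences in the results below was not tested.

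Of the 133 gene models, 20 were higher and 18 lower in PGCs, which is 28.6%. Of all gene models 29.3% passed the test, 12.6% as higher and 16.8% as lower, so the genes as a whole differed between the cell types about as often as any gene. The median log2 ratio was -0.01 for the 133 and 0.07 for all gene models. The libraries of both cell types did not overlap for 66 of the 133, or 49.6%, beside 48.2% of all gene models. At least 2-fold differences passed for 15 higher and 9 lower gene models, beside 10.2% and 10.1% of all gene models.

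By compartment, ER genes gave 8 higher and 3 lower of 30, with a median of 0.29, and cytosolic genes 11 higher and 10 lower of 62, with a median of -0.17. Of 12 mitochondrial gene models 0 were higher and 1 was lower, of 19 redox gene models 1 was higher and 4 were lower, and of 9 other stress regulators 0 passed the test in either direction. At an unadjusted p under 0.05 by the same edgeR test 5 mitochondrial gene models and 1 stress regulator passed. So did 4012 of all 10364 gene models. The mitochondrial ones went both ways, with a gene model each of hspa9 and hspe1 higher and dnajc19, dnajc28 and dnajc30 lower. The DESeq2 Wald test called 1 stress regulator lower and 0 mitochondrial gene models higher. These shares are descriptions, and no test compared one compartment with another.

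**Figure D1:**
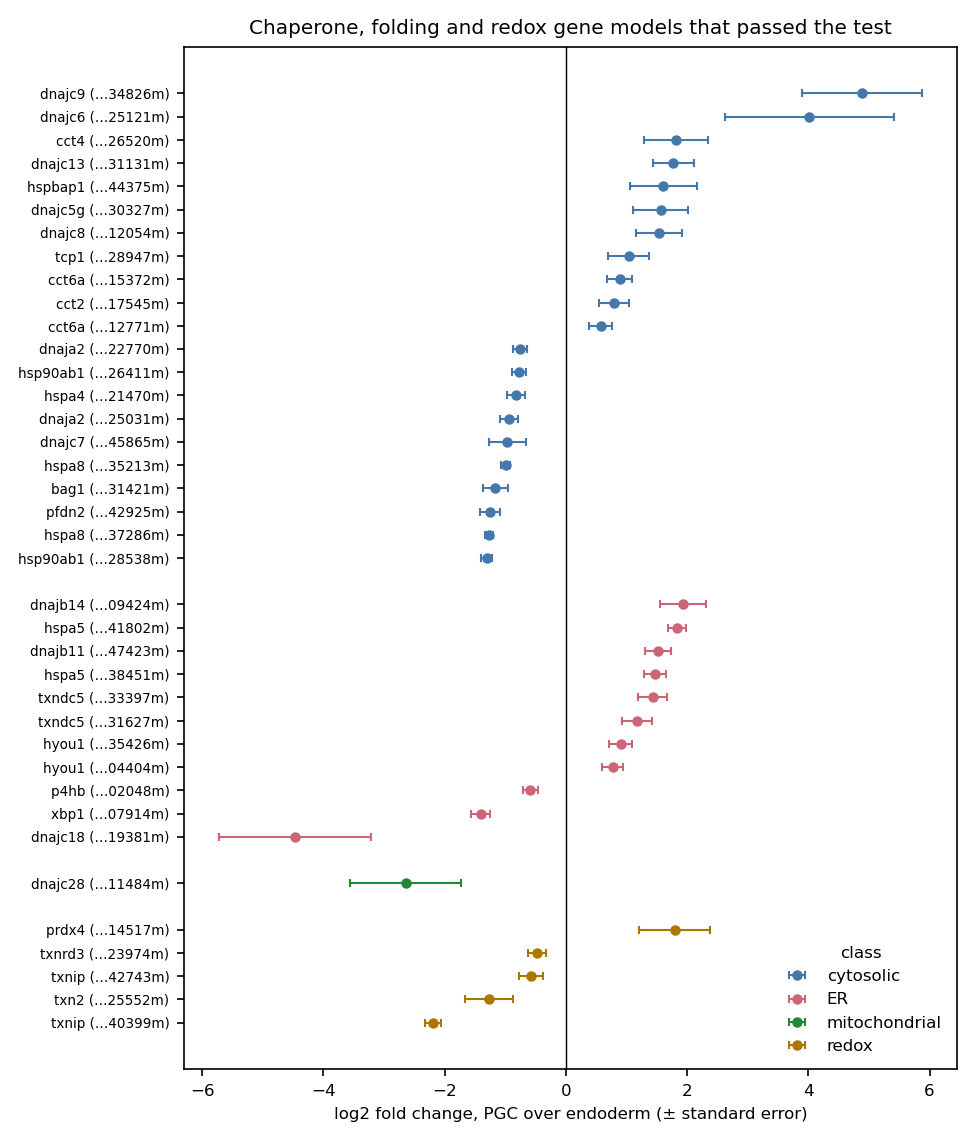
Log2 ratio of PGC over endoderm with its standard error for the 38 gene models that passed the test, grouped by compartment; points right of 0 are higher in PGCs. Cytosolic genes lie on both sides of 0, the ER group lies mainly to the right, and the redox group mainly to the left.

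The ER Hsp70 system was higher in PGCs, led by BiP. The more counted hspa5 gene model (Xelaev18041802m), which encodes BiP, stood at 715, 669 and 685 CPM in PGC libraries and at 172, 242 and 164 CPM in endoderm libraries. Every PGC library lay far above every endoderm library, a 3.58-fold difference with a log2 ratio of 1.84 ± 0.15 and an edgeR adjusted p of 1.73e-06. The other hspa5 gene model (Xelaev18038451m) had 212, 256 and 224 CPM in PGCs against 69.0, 78.8 and 101.0 CPM in endoderm, and rose by 1.48 ± 0.18. Both passed under each of 13 other settings, with values of 1.77 to 2.67 and 1.40 to 1.89. The low-count filter removed 0 gene models, so the setting without it repeats the main fit.

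Both gene models of hyou1 were also higher in PGCs. hyou1 encodes Grp170, the large ER Hsp70 that exchanges nucleotide on BiP, and its gene models stood at 160, 157 and 130 CPM in PGCs against 83.0, 91.5 and 87.1 CPM in endoderm (Xelaev18004404m, 0.78 ± 0.17) and at 150, 183 and 142 CPM in PGCs against 72.0, 89.7 and 92.2 CPM in endoderm (Xelaev18035426m, 0.90 ± 0.19). Neither pair of library groups overlapped. In all, 4 of the 5 gene models of ER Hsp70 proteins were higher, beside 12.6% of all gene models. The remaining one, hspa13, had a log2 ratio of 1.06 ± 0.87 with an adjusted p of 0.414 by edgeR.

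J-domain proteins of the ER split. dnajb11, which encodes the BiP partner ERdj3, had 142, 136 and 170 CPM in PGCs and 50.7, 42.6 and 63.3 CPM in endoderm in one gene model (Xelaev18047423m, 1.52 ± 0.21, edgeR adjusted p = 0.000162). The PGC libraries lay wholly above the endoderm libraries. Its other gene model (Xelaev18045039m) stood at 62.5, 71 and 54.8 CPM in PGCs and 54.3, 90.9 and 93.2 CPM in endoderm, and overlapped (-0.34 ± 0.26, adjusted p = 0.376 by edgeR). dnajb14, an ER membrane J-domain gene, rose by 1.93 ± 0.38, with 51.0, 56.6 and 67.4 CPM in PGCs and 14.1, 9.40 and 22.6 CPM in endoderm (Xelaev18009424m). The other dnajb14 gene model had 2.61 ± 1.13 and did not pass. dnajb9, the ERdj4 gene, had 1.35 ± 0.53 in one gene model and -0.39 ± 0.34 in the other, and neither passed. In the opposite direction, dnajc18, another ER membrane J-domain gene, had 2.81, 0 and 0.307 CPM in PGCs against 23.1, 16.2 and 30.7 CPM in endoderm (-4.47 ± 1.25), where the PGC counts were 53, 0 and 5. Fits that dropped PGC replicate 3 or endoderm replicate 1 or 3 no longer called it (-4.04, -4.42 and -4.21), and dropping PGC replicate 1 gave -7.18. Of the 13 gene models in this group, 2 were higher and 1 was lower, or 23.1%, beside 29.3% of all gene models.

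Among the enzymes that form and shuffle disulfide bonds and the lectins, only txndc5 was called higher, in both gene models. The isomerase gene pdia6 had 0.48 ± 0.18 without overlap and missed the threshold (adjusted p = 0.0594 by edgeR). txndc5 encodes the disulfide isomerase ERp46, and stood at 138, 147 and 142 CPM in PGCs against 53.7, 35.8 and 68.5 CPM in endoderm (Xelaev18033397m, 1.44 ± 0.24) and at 65.6, 74.8 and 81.0 CPM in PGCs against 31.6, 31.8 and 34.8 CPM in endoderm (Xelaev18031627m, 1.17 ± 0.25). In both, all PGC libraries exceeded all endoderm libraries. The pdia3 gene models, for the isomerase ERp57 that works with the lectins, had 254 ± 11.9 CPM in PGCs and 236 ± 10.9 CPM in endoderm and 310 ± 62.0 CPM in PGCs and 296 ± 7.0 CPM in endoderm (SD, n = 3), with log2 ratios of 0.11 ± 0.13 and 0.07 ± 0.15 that did not pass. canx, which encodes calnexin, had 370 ± 37.1 CPM in PGCs and 435 ± 70.2 CPM in endoderm (-0.24 ± 0.14) and did not pass either, but turned to 0.53 and passed when library scaling followed expression level.

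p4hb, the founding protein disulfide isomerase, had one gene model that was lower in PGCs and one that did not differ beyond its spread. Xelaev18002048m stood at 248, 222 and 283 CPM in PGCs and 376, 390 and 362 CPM in endoderm, without overlap (-0.58 ± 0.13), while Xelaev18043753m stood at 915, 841 and 796 CPM in PGCs and 806, 956 and 802 CPM in endoderm, with full overlap (-0.01 ± 0.10). Both values depend on scaling. Total-count scaling gave -0.26 and 0.31, and scaling that followed expression level gave 0.08 and 1.06, where the last passed the test.

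The regulator xbp1 was lower in PGCs, where hspa5 and hyou1 were higher. xbp1 encodes a transcription factor of the unfolded protein response, and its gene model Xelaev18007914m had 110, 114 and 97.2 CPM in PGCs against 253, 316 and 282 CPM in endoderm. All PGC libraries lay below all endoderm libraries, a log2 ratio of -1.41 ± 0.15 with an edgeR adjusted p of 2.13e-05 that kept its call in the 13 other settings (-1.45 to -0.95). The other gene model (Xelaev18010710m) had 113, 123 and 77.0 CPM in PGCs and 141, 191 and 140 CPM in endoderm, and missed the threshold (-0.59 ± 0.21, adjusted p = 0.0565 by edgeR). Counts per gene model do not separate the spliced form of xbp1 RNA, which encodes the active protein, from the unspliced form.

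**Figure D2:**
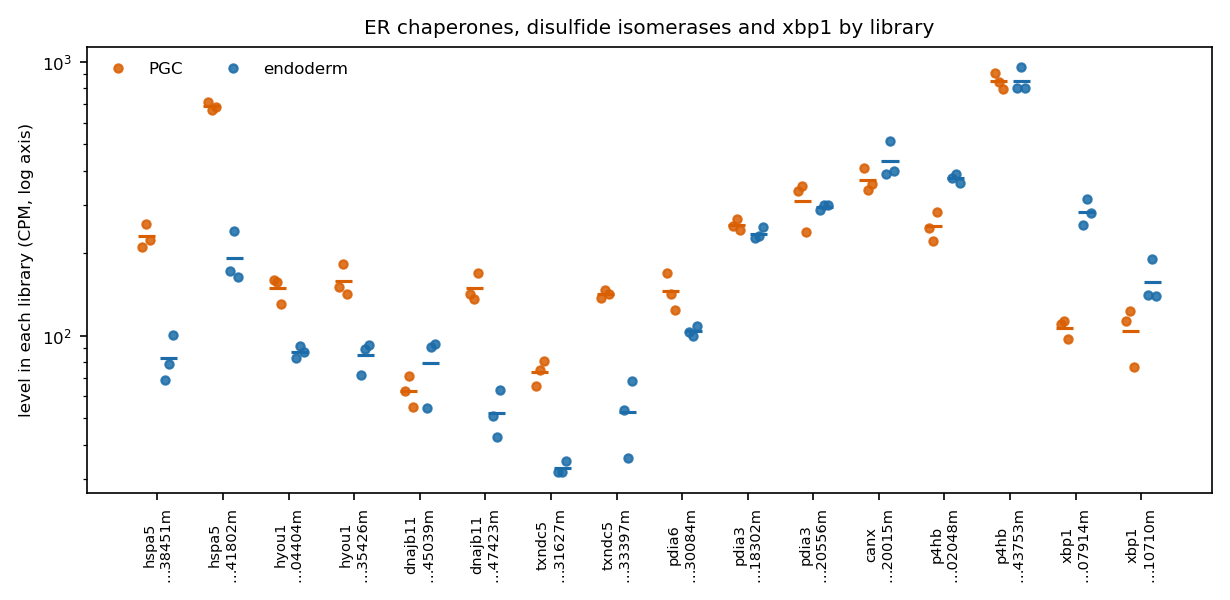
Level in CPM (log axis) of ER chaperone and disulfide isomerase gene models and of xbp1 in each library, PGC left of endoderm, with a bar at the mean. hspa5, hyou1, txndc5 and one dnajb11 gene model are higher in all PGC libraries, pdia3 and one p4hb gene model overlap, and xbp1 is lower in PGCs.

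Abundant cytosolic Hsp70 and Hsp90 genes were lower in PGCs under composition-corrected scaling. hspa8, the gene of the constitutive Hsp70 protein Hsc70, had 1820, 1783 and 1717 CPM in PGCs against 4290, 4468 and 4025 CPM in endoderm in Xelaev18037286m (-1.26 ± 0.06, edgeR adjusted p = 1.57e-08) and 2038, 2247 and 1916 CPM in PGCs against 3940, 4334 and 4077 CPM in endoderm in Xelaev18035213m (-0.99 ± 0.07). The groups were far apart in both. hsp90ab1, the constitutive cytosolic Hsp90 gene, had 727, 712 and 642 CPM in PGCs against 1587, 1842 and 1699 CPM in endoderm (Xelaev18028538m, -1.30 ± 0.09) and 542, 515 and 488 CPM in PGCs against 772, 1027 and 835 CPM in endoderm (Xelaev18026411m, -0.77 ± 0.12), again without overlap. All 4 lie in the most highly counted 10th of gene models, whose median was -0.75. When scaling followed expression level, the hspa8 values reversed to 0.27 and 0.55 and passed as higher, and the hsp90ab1 values were -0.12 and 0.20 and did not pass. Total-count scaling kept all 4 lower, at -0.95 and -0.68 for hspa8 and -0.98 and -0.45 for hsp90ab1.

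Among Hsp70 cofactors, bag1, a nucleotide exchange factor, had 53.1, 58.2 and 45.5 CPM in PGCs and 110, 126 and 115 CPM in endoderm (-1.16 ± 0.20), a call kept in the 13 other settings. hspa4, the gene of the Hsp110-type exchange factor Apg-2, was lower in one gene model, with 218 ± 22.2 CPM in PGCs and 384 ± 62.0 CPM in endoderm (Xelaev18021470m, -0.82 ± 0.15; -0.18 and not called when scaling followed level), and had 0.25 ± 0.22 in the other. st13, the Hsp70-interacting protein Hip, did not pass in either gene model, with values of 0.51 ± 0.24 and 0.37 ± 0.18. The Hsp70 gene hspa2 had 36.5 ± 5.70 CPM in PGCs and 17.2 ± 4.71 CPM in endoderm, without overlap. It missed the threshold (1.08 ± 0.39, adjusted p = 0.0557 by edgeR), but passed as higher in the separately tested v7.1 table (1.14 ± 0.34). The only gene model of the 17 in this group called higher was hspbap1, named for its binding to a small heat shock protein. The hspbap1 gene model had 23.0 ± 1.69 CPM in PGCs and 7.49 ± 2.34 CPM in endoderm (1.61 ± 0.54). Its call was lost without PGC replicate 1, 2 or 3 (1.65, 1.55 and 1.63) and without endoderm replicate 2 or 3 (1.53 and 1.49), as well as with scaling that followed level (1.22).

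Of 25 cytosolic J-domain gene models 5 were higher and 3 lower. That is 32.0%, near the 29.3% of all gene models (12.6% higher and 16.8% lower). dnaja2, a general Hsc70 partner, was lower in both gene models (-0.94 ± 0.15 and -0.76 ± 0.12), which was also a scaling-dependent result, with -0.38 and 0.03 and no call when scaling followed level. dnajc7, which carries J and TPR domains and binds both Hsp70 and Hsp90, had -0.96 ± 0.30 in Xelaev18045865m. This call was lost without PGC replicate 2 (-0.79) or without endoderm replicate 1, 2 or 3 (-0.89, -0.93 and -0.96), and under total-count scaling (-0.64). The other dnajc7 gene model had -0.54 ± 0.20 and did not pass. dnajc9, whose human protein escorts histones, had 32.9, 40.5 and 55.5 CPM in PGCs and 1.59, 0 and 2.95 CPM in endoderm, where the counts were 41, 0 and 26. All PGC libraries were far above these levels, a 29.5-fold difference with a log2 ratio of 4.88 ± 0.99 and an edgeR adjusted p of 0.00267 that passed in every one of the 13 other settings (4.31 to 5.69).

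dnajc13, the endosomal clathrin-coat regulator Rme-8, was higher, with 47.2, 53.3 and 65.9 CPM in PGCs against 14.4, 19.9 and 14.3 CPM in endoderm (Xelaev18031131m, 1.77 ± 0.34), and dnajc8, a spliceosome-associated gene, averaged 55.7 ± 15.7 CPM in PGCs against 19.2 ± 6.89 CPM in endoderm (Xelaev18012054m, 1.54 ± 0.38). These dnajc13 and dnajc8 gene models kept their call in the 13 settings, and the other gene models of both, at 0.88 ± 0.33 and -0.17 ± 0.32, did not pass. dnajc6 encodes auxilin, which strips clathrin from vesicles, and had 15.1, 9.0 and 15.4 CPM in PGCs and 1.09, 0 and 1.36 CPM in endoderm (Xelaev18025121m, 4.02 ± 1.40, edgeR adjusted p = 0.0482). It was not called without PGC replicate 1, 2 or 3 (3.90, 4.23 and 3.89) and without endoderm replicate 1 or 3 (4.39 and 4.56), nor when scaling followed level (3.55). dnajc5g, of the cysteine string protein family, had 1.57 ± 0.45 in Xelaev18030327m, and lost this call without PGC replicate 2 or 3 (1.52 and 1.49). The other gene models of dnajc6 and dnajc5g, at 2.96 ± 1.67 and 1.16 ± 0.75, did not pass.

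Of 10 gene models of tcp1, cct2, cct4, cct6a and cct8, which encode subunits of TRiC, 5 were higher and 0 lower, with a median of 0.64. Of all gene models 12.6% were higher and 16.8% lower. The subunit genes cct3, cct5 and cct7 were not named in the v9.1 table and are given further below. Neither cct8 gene model passed, at -0.18 and -0.28. cct6a stood at 190, 227 and 200 CPM in PGCs and 110, 142 and 80.3 CPM in endoderm in Xelaev18015372m (0.89 ± 0.20, kept in the 13 settings), with no overlap between the groups. Its other gene model had 0.58 ± 0.19, and only the fit without PGC replicate 2 kept it called among those that left out a library, with 0.42 and 0.57 without PGC replicates 1 and 3 and 0.62, 0.61 and 0.62 without endoderm replicates 1, 2 and 3. cct4 rose by 1.82 ± 0.53 (Xelaev18026520m), where PGC replicate 2 stood at 59.7 CPM beside 19.4 and 24.9 CPM in the other PGC libraries and 13.2, 8.01 and 8.16 CPM in endoderm. The cct4 value was 1.17 without PGC replicate 2, 1.72 without endoderm replicate 3 and 1.49 when scaling followed level, and none of these passed. The other cct4 gene model had -0.16 ± 0.22 and did not pass.

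The tcp1 gene model Xelaev18028947m had 63.8 ± 8.28 CPM in PGCs and 31.1 ± 13.9 CPM in endoderm (1.04 ± 0.34), and its call was lost without PGC replicate 1, 2 or 3 (0.97, 1.00 and 1.14) and without endoderm replicate 1 or 2 (0.93 and 0.91), and when scaling followed level (0.98), while the other tcp1 gene model had -0.02 ± 0.23. cct2 Xelaev18017545m had 97.7 ± 19.4 CPM in PGCs and 56.5 ± 12.8 CPM in endoderm (0.79 ± 0.25), and was not called without PGC replicate 1 (0.62) or endoderm replicate 2 (0.65). The other cct2 gene model had 0.70 ± 0.34 and did not pass. Of 5 prefoldin gene models 0 were higher and 1 was lower, or 20.0%, near the 16.8% of all gene models that were lower. The pfdn4 gene models (-0.80 ± 0.66 and -0.92 ± 1.48) and those of pfdn5 (-0.57 ± 0.51 and 0.50 ± 0.58) did not pass. The lower one was pfdn2, with 76.9, 78.9 and 77.4 CPM in PGCs and 166, 196 and 193 CPM in endoderm (-1.25 ± 0.16, kept in the 13 settings). The PGC libraries of pfdn2 were close to each other and far below all endoderm libraries. Over all cytosolic gene models, the count called higher was 11 in the main fit. It was 8, 10 and 7 without endoderm replicates 1, 2 and 3. Without PGC replicates 1, 2 and 3 it was 6, 6 and 7. These are new counts and not calls kept. The 10 include gene models outside the 11, since the tcp1 and cct2 calls above were lost without endoderm replicate 2.

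Heat shock factors, the transcription factors of the heat shock response, did not pass in any of 5 gene models. The hsf1 gene models had -0.83 ± 0.65 and 0.55 ± 0.64, those of hsf2 -0.37 ± 0.23 and -0.25 ± 0.35, and hsf3 -0.70 ± 0.87, and the libraries of both cell types overlapped in all of them. The hsf1 gene models had 5.78 to 18.2 CPM in PGC libraries and 7.19 to 20.8 CPM in endoderm libraries, and at such levels the test has little precision.

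**Figure D3:**
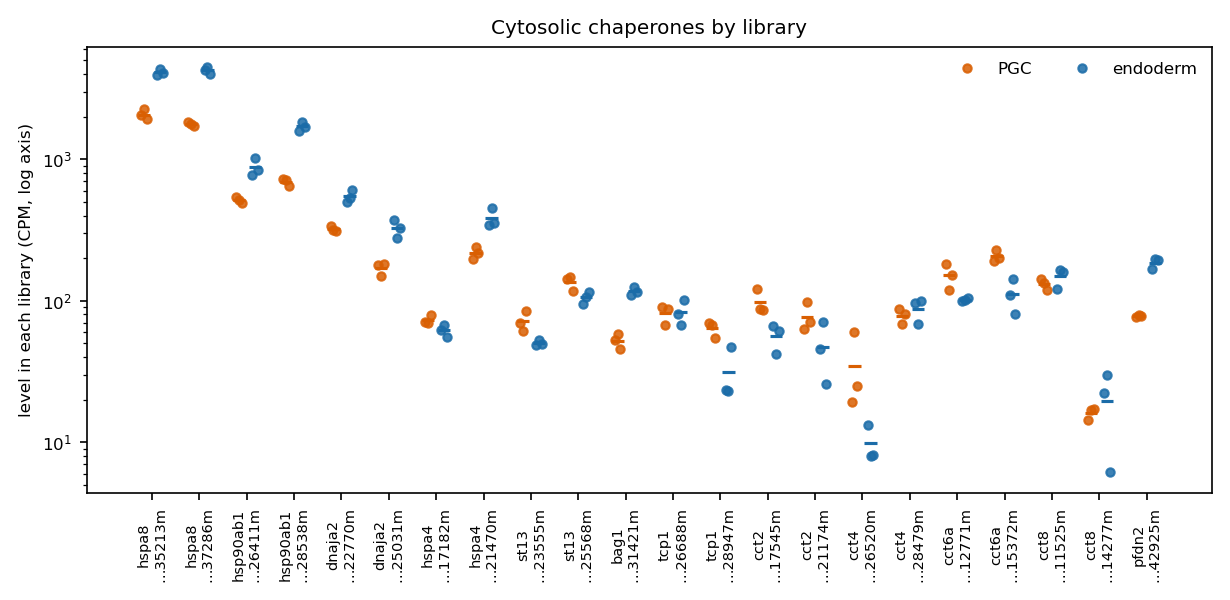
Level in CPM (log axis) of cytosolic chaperone gene models in each library, PGC left of endoderm, with a bar at the mean. hspa8, hsp90ab1, dnaja2, bag1 and pfdn2 are lower in all PGC libraries, whereas both cct6a gene models are higher.

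In mitochondria, hspa9 encodes the Hsp70 protein mortalin and hspe1 the cap of the Hsp60 chaperonin. The hspa9 gene models had 71 ± 13 CPM in PGCs and 46.3 ± 7.19 CPM in endoderm (0.62 ± 0.26, adjusted p = 0.0990 by edgeR) and 116 ± 16.3 CPM in PGCs and 140 ± 0.821 CPM in endoderm (-0.28 ± 0.17). The hspe1 gene models had log2 ratios of 1.38 ± 0.63 and 0.69 ± 0.44, and none of these passed. The median over the 12 gene models was 0.48, and 7 of them, or 58.3%, were above 0, beside 52.5% of all gene models. All but hspa9 Xelaev18020021m lie in level bins whose median over all gene models was 0.01 to 0.59. The single call was dnajc28, a J-domain gene, with 3.77, 0.791 and 2.70 CPM in PGCs and 18.7, 15.4 and 11.2 CPM in endoderm (-2.64 ± 0.91). It was lost in every fit that left out a library, with -3.11, -2.22 and -2.72 without PGC replicates 1, 2 and 3 and -2.40, -2.6 and -2.79 without endoderm replicates 1, 2 and 3, and also with DESeq2 size factors (-2.58) and total-count scaling (-2.32).

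Redox genes were led by txnip, which encodes an arrestin-like protein that binds and inhibits thioredoxin. Its gene model Xelaev18040399m had 110, 129 and 138 CPM in PGCs and 561, 605 and 551 CPM in endoderm, with a log2 ratio of -2.19 ± 0.13 and an edgeR adjusted p of 9.37e-08. Every PGC library was far below every endoderm library, at 0.219-fold on average, and the call held in the 13 settings (-2.26 to -1.5). The other gene model (Xelaev18042743m) had 66.3 ± 5.38 CPM in PGCs and 99.1 ± 3.02 CPM in endoderm. Its value of -0.58 ± 0.20 was not called under DESeq2 size factors or the DESeq2 Wald test (-0.53 in both), total-count scaling (-0.26) or scaling that followed level (-0.44). Nor was it called in any fit that left out a library, at -0.64, -0.57 and -0.52 without PGC replicates 1, 2 and 3 and -0.54, -0.54 and -0.53 without endoderm replicates 1, 2 and 3.

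Of the thioredoxins themselves, txn had 1.86 ± 1.81 CPM in PGCs and 8.80 ± 4.37 CPM in endoderm (-2.24 ± 1.52), which did not pass at this depth. The mitochondrial thioredoxin txn2 was lower in Xelaev18025552m, with 24.8, 37.6 and 12.4 CPM in PGCs and 52.3, 53.1 and 74.6 CPM in endoderm (-1.26 ± 0.40), a call lost without PGC replicate 1 or 3 (-1.26 and -0.94) or endoderm replicate 1 or 3 (-1.30 and -1.05), and under total-count scaling (-0.95). txnrd3, a thioredoxin reductase, had -0.47 ± 0.15 in Xelaev18023974m, a call that needed PGC replicates 1 and 2 (-0.46 and -0.44 without them) and endoderm replicates 1 and 2 (-0.34 and -0.41), and that was lost with DESeq2 size factors (-0.42), total-count scaling (-0.15) and scaling that followed level (0.04). The other gene models of txn2 and txnrd3, at -0.56 ± 0.81 and -0.17 ± 0.32, did not pass. The count of 4 lower redox gene models was 1, 2 and 2 without PGC replicates 1, 2 and 3 and 1, 2 and 2 without endoderm replicates 1, 2 and 3.

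All 8 gene models of peroxiredoxins and of the cytosolic superoxide dismutase sod1 had log2 ratios above 0, from 0.10 to 3.08, beside 52.5% of all gene models above 0, and 1 passed. Of these 8, 7 lie in level bins whose median over all gene models was 0.31 to 0.61. The 1 call was prdx4, the ER peroxiredoxin, with 25.3, 30.2 and 53.8 CPM in PGCs and 14.8, 3.1 and 13.6 CPM in endoderm (Xelaev18014517m, 1.79 ± 0.59), a call missed after dropping PGC replicate 2 or 3 (1.91 and 1.40) or endoderm replicate 1 (2.20), or when scaling followed level (1.49). The sod1 gene models had 46.2 ± 8.26 CPM in PGCs and 43.0 ± 12.2 CPM in endoderm (0.10 ± 0.31) and 14.3 ± 6.90 CPM in PGCs and 7.53 ± 2.33 CPM in endoderm (0.92 ± 0.73), and overlapped.

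The stress regulators outside the ER did not pass in any of 9 gene models. atf4, the transcription factor of the integrated stress response, had 303, 276 and 242 CPM in PGCs and 351, 490 and 306 CPM in endoderm in Xelaev18023667m (-0.48 ± 0.17, edgeR adjusted p = 0.0532), and passed as lower in the fit without endoderm replicate 3 (-0.59) and by the DESeq2 Wald test (-0.43). The value was -0.23 without endoderm replicate 2, and 0.20 when scaling followed level. ddit3, which encodes the pro-apoptotic factor Chop, had 6.27 ± 3.24 CPM in PGCs and 14.3 ± 15.2 CPM in endoderm in one gene model and 2.85 ± 1.76 CPM in PGCs and 3.25 ± 1.46 CPM in endoderm in the other, and neither passed (-1.20 ± 0.96 and -0.19 ± 1.46). ddit4, a stress-induced inhibitor of TORC1 signalling, had 714 ± 21.1 CPM in PGCs and 803 ± 133 CPM in endoderm in the more counted gene model, with a log2 ratio of -0.17 ± 0.12. The kinases that phosphorylate the translation factor eIF2 and activate Atf4 had 0.82 ± 0.74 for eif2ak1, -0.00 ± 0.72 for eif2ak2 and -0.20 ± 0.26 for eif2ak4.

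How a gene compared between the cell types depended on how highly it was counted, over the whole table. The median log2 ratio was 0.61 in the lowest of 10 equal bins by mean level and -0.75 in the highest bin, where 80.4% passed the test and 726 of 1037 were lower in PGCs against 108 that were higher. Of the 21 chaperone, folding and stress gene models in this highest bin, 11 were lower, 9 did not pass and 1, hspa5 Xelaev18041802m, was higher. In the lowest 4 bins, 4 of 40 passed, near the 9.17% of all gene models there. When scaling followed expression level, 10 of the 18 lower calls were lost or reversed and 5 of the 20 higher calls were lost, and ER genes became 13 higher and 2 lower. Total-count scaling moved the median of all gene models from 0.07 to 0.39 and the split of the 133 to 31 higher and 12 lower. The calls that held in all 13 settings were 12 of the 20 higher and 4 of the 18 lower, these 4 being txnip Xelaev18040399m, xbp1 Xelaev18007914m, pfdn2 and bag1.

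**Figure D4:**
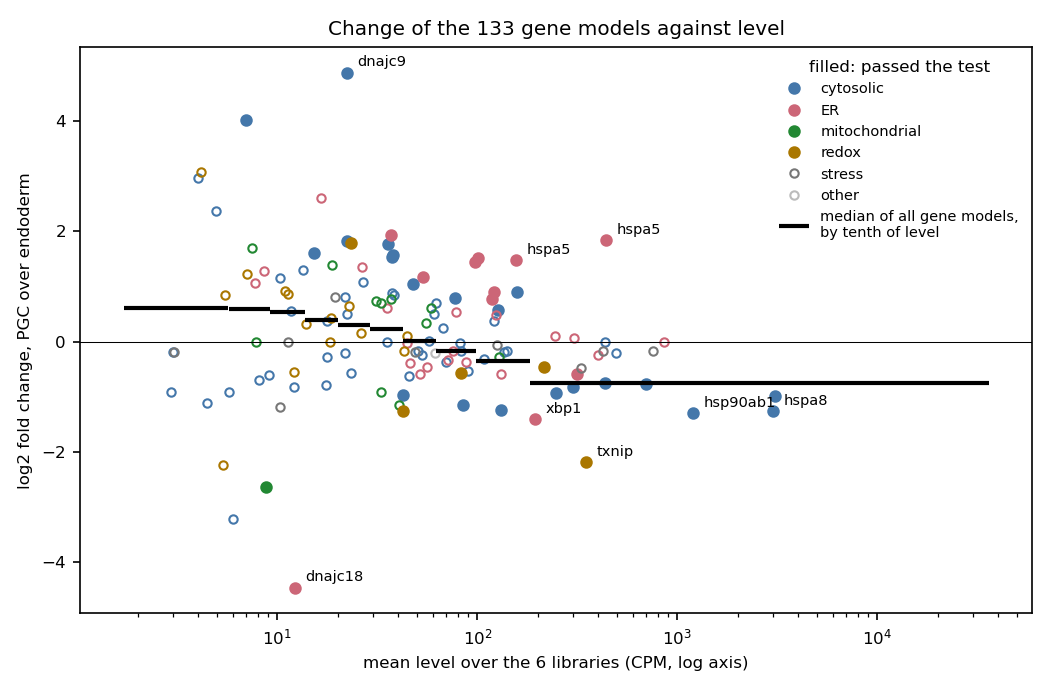
Log2 ratio of PGC over endoderm against mean level in CPM (log axis) for the 133 gene models, coloured by compartment, filled where the test passed; black bars are medians of all gene models in 10 bins of level. The bars run from 0.61 to -0.75. Both hspa8 gene models and hsp90ab1 Xelaev18028538m lie below the lowest bar, at -1.30 to -0.99. hsp90ab1 Xelaev18026411m lies at about that bar (-0.77 ± 0.12), and the more counted hspa5 gene model lies far above it, at 1.84.

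Xenopus laevis is allotetraploid and keeps many genes as a pair of near copies. Of the 83 symbols, 50 had 2 gene models and 33 had 1. How reads that match both copies were counted is unstated in the sources used here, and values of single copies are uncertain where their sequences are alike. Both gene models were higher for hspa5, hyou1, txndc5 and cct6a, and both were lower for hspa8, hsp90ab1, dnaja2 and txnip. For 16 symbols 1 of the 2 passed, for 26 neither passed, and 0 symbols had calls in opposite directions. The sign was the same within 38 of the 50 pairs. The same counts over all symbols with 2 gene models are not given here, so these describe the 50 pairs alone.

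Pairs were formed by symbol alone and may not all be near copies. The hsf2 gene models, for example, have consecutive identifiers (Xelaev18027025m and Xelaev18027026m). The difference between the 2 gene models was tested itself for all symbols that had 2, with the library as a block. It passed for 5 of the 50, beside 9.74% of the 3512 pairs in the table. txnip had the smallest p, with a difference in log2 ratio of 1.61 ± 0.21 and an edgeR adjusted p of 0.00242, and passed in every fit that left out a library (1.46 to 1.74). dnajb11 differed by 1.83 ± 0.38, and missed the threshold without PGC replicate 1 or 3 (1.86 and 1.64). hspa4 differed by 1.06 ± 0.21 and hsp90ab1 by 0.54 ± 0.11 in absolute value. hspa4 was not called without PGC replicate 1 (-1.01), and hsp90ab1 was not called without PGC replicate 1 or 3 (-0.54 and -0.52) or endoderm replicate 1 or 3 (-0.50 and -0.51). p4hb differed by 0.58 ± 0.16 with an edgeR adjusted p of 0.0493, and with a library left out passed only where this was PGC replicate 3 (0.72), with 0.52 and 0.51 without PGC replicates 1 and 2 and 0.54, 0.64 and 0.57 without endoderm replicates 1, 2 and 3. Over the 50 symbols, the number that passed was 1, 4 and 4 without PGC replicates 1, 2 and 3. It was 3, 4 and 3 without endoderm replicates 1, 2 and 3. The count without PGC replicate 3 includes a symbol other than the 5 above.

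**Figure D5:**
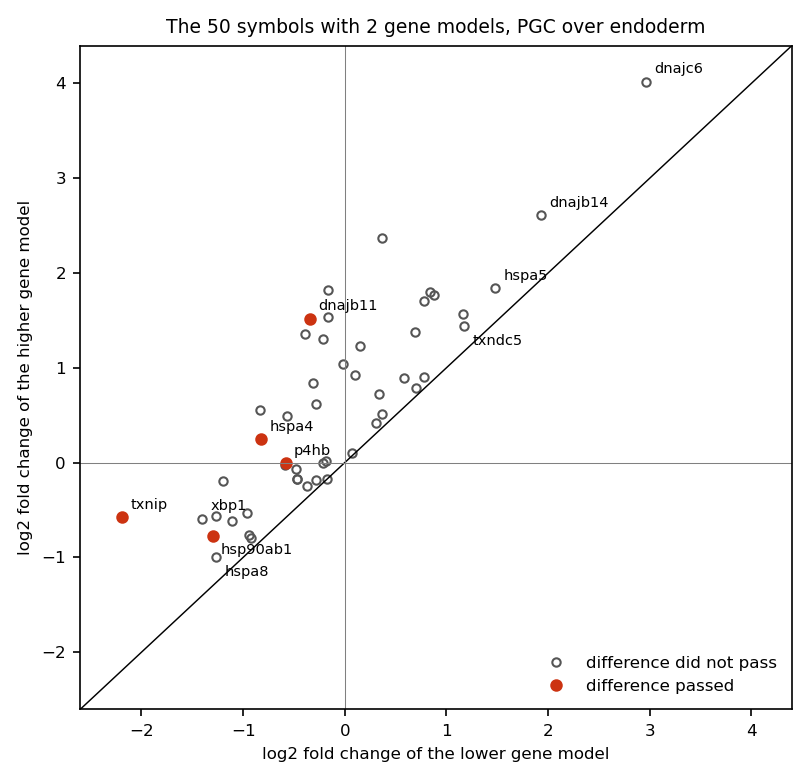
Log2 ratio of PGC over endoderm of both gene models of the 50 symbols that had 2, the higher one on the vertical axis and the lower one on the horizontal; the diagonal marks equal values. Filled points, among them txnip and dnajb11, are the 5 symbols whose difference passed the test.

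As a share of all counts in a library, the 133 gene models took 1.86 ± 0.0585% in PGCs and 2.07 ± 0.0713% in endoderm (SD, n = 3). These shares use total counts without correction for composition. Under total-count scaling the median log2 ratio of all gene models was 0.39, so a higher PGC share is to be read beside that shift. Cytosolic genes took 1.03 ± 0.0449% in PGCs and 1.39 ± 0.0597% in endoderm, of which the hspa8 pair alone made up 0.429 ± 0.0214% in PGCs and 0.750 ± 0.0329% in endoderm. ER genes took 0.538, 0.525 and 0.495% in PGC libraries and 0.334, 0.379 and 0.353% in endoderm libraries, so that their share was higher in every PGC library. Mitochondrial genes took 0.0527 ± 0.00648% in PGCs and 0.0401 ± 0.00400% in endoderm, and redox genes 0.0776 ± 0.00631% in PGCs and 0.109 ± 0.00367% in endoderm. For these 5 shares the groups did not overlap, and the exact two-sided permutation test gave p = 0.1, the smallest that 3 libraries against 3 allow, so none can pass 0.05. The redox difference rested on txnip, since without the most counted gene model, the PGC share exceeded the endoderm share by 0.00587 percentage points. Stress regulators took 0.179 ± 0.00688% in PGCs and 0.167 ± 0.0200% in endoderm and overlapped (exact permutation p = 0.4).

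A further list of 127 symbols that cooperate with these genes had 70 symbols and 111 gene models in the table, of which 17 were higher and 17 lower, or 30.6%, near the 29.3% of all gene models (12.6% higher and 16.8% lower). Among 49 gene models of ER quality control 7 were higher and 9 lower. sil1, the nucleotide exchange factor of BiP, had 38.6, 40.4 and 34.2 CPM in PGCs and 7.0, 2.62 and 11.3 CPM in endoderm (2.44 ± 0.55), with no overlap. manf, which encodes a BiP-binding ER protein, rose in both gene models (1.37 ± 0.27 and 1.28 ± 0.29). herpud1, which recruits ER degradation factors, had 55.3, 73.2 and 83.2 CPM in PGCs and 229, 270 and 191 CPM in endoderm (Xelaev18022525m, -1.70 ± 0.20), while its other gene model had 50.9 ± 7.61 CPM in PGCs and 34.2 ± 22.8 CPM in endoderm and did not pass (0.58 ± 0.50). sec61a1, the channel of the translocon, was lower in both gene models (-1.29 ± 0.15 and -1.15 ± 0.17), as was vcp, the p97 ATPase that extracts proteins for degradation (-1.21 ± 0.26 and -0.99 ± 0.21). The sil1, manf, sec61a1 and vcp calls and the herpud1 call were kept in each alternative setting run.

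In the cytosol, hsph1, the gene of the Hsp110 protein Hsp105, rose in both gene models by 1.47 ± 0.44 and 1.44 ± 0.30, among 5 higher and 2 lower of 18. The first of these calls was lost without PGC replicate 1, 2 or 3 (1.5, 1.38 and 1.53). Of 29 further redox gene models 3 were higher and 5 lower. The glutathione genes gsto1 and gpx1, for a transferase and a peroxidase, were lower at -2.97 ± 0.51 and -1.60 ± 0.30, and kept their calls, while the other gpx1 gene model did not pass (-0.45 ± 1.93). gclm, the modifier subunit of the enzyme that starts glutathione synthesis, was higher at 2.42 ± 0.79. The gclm call was lost without PGC replicate 1, 2 or 3 (2.47, 2.22 and 2.55) or endoderm replicate 3 (2.42), and when scaling followed level (2.23). Of 15 mitochondrial quality control gene models 2 were higher and 1 lower. Among the higher ones, the protease gene spg7 had 1.55 ± 0.49. It was not called without PGC replicate 1, 2 or 3 (1.41, 1.67 and 1.58) or endoderm replicate 2 or 3 (1.35 and 1.24), nor when scaling followed level (1.34). Over the whole list, the count of higher gene models was 9, 9 and 12 without PGC replicates 1, 2 and 3. It was 18, 16 and 12 without endoderm replicates 1, 2 and 3, beside 17 in the main fit. These counts can include gene models that the main fit did not call.

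The v7.1 table, tested on its own, named 108 gene models by the same rule, of which 18 were higher and 11 lower, where 28.9% of its 7902 gene models passed (12.8% as higher and 16.1% as lower). At 2-fold or more 13 were higher and 7 lower, beside 10.7% and 9.78% of that table. The groups did not overlap for 47 of the 108, beside 46.5% of all. For 29 of the 108 the counts lay within 2% of a v9.1 member in every library, so their values repeat those above. Names also differed between tables. The counts of pfdn6-b Xelaev15052797m.g equalled those of a v9.1 gene model named b3galt4. Those of p4hb Xelaev15069834m.g equalled those of one named arhgdia. Which gene such counts belong to is uncertain. The v7.1 table carried 37 symbols that the v9.1 table did not name, in 40 gene models. For 6 of these the counts lay within 2% of a v9.1 member in every library. Among these 6, hspa1l was lower, as was its v9.1 match hspa8. pdia6-b passed as higher (0.54 ± 0.18), where its v9.1 match pdia6 missed the threshold. Of the other 34, 6 were higher, 3 lower and 25 did not pass. The largest difference of these was in hsp90aa1.1, a heat-inducible cytosolic Hsp90 gene, with 186, 178 and 182 CPM in PGCs and 9.77, 11.6 and 19.9 CPM in endoderm. The groups were far apart, a 13.4-fold difference with a log2 ratio of 3.75 ± 0.29 and an edgeR adjusted p of 3.69e-07, and its values over 10 other settings were 3.60 to 4.12. In the same v7.1 table hsp90ab1 was lower (-1.25 ± 0.09). Its counts differed by at most 0.273% from those of v9.1 Xelaev18028538m, so this repeats that result. Both hsp90ab1 gene models of the v9.1 table were lower. Both v9.1 calls of hsp90ab1 were lost when scaling followed expression level (-0.12 and 0.20).

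The ER Hsp90 gene hsp90b1, which encodes Grp94, had 1528, 1598 and 1599 CPM in PGCs and 554, 734 and 764 CPM in endoderm (1.2 ± 0.11, with 1.13 to 2.22 over the other settings), so all PGC libraries lay above all endoderm libraries. The J-domain gene dnaja4.1 rose by 1.35 ± 0.19. eif2ak3, which encodes the ER stress kinase Perk, had 42.6, 19.3 and 33.9 CPM in PGCs and 10.3, 8.24 and 5.50 CPM in endoderm (1.99 ± 0.54), a call lost without PGC replicate 1 (1.73). The isomerase gene pdia4 had 0.44 ± 0.16 and txndc9 0.80 ± 0.28. pdia4 lost its call without PGC replicate 1 or 3 (0.37 and 0.45) or endoderm replicate 1 or 3 (0.46 and 0.46), and txndc9 without the same libraries (0.44, 0.87, 0.80 and 0.80).

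The chaperonin subunit cct5 fell by 0.92 ± 0.20 and the prefoldin subunit pfdn1 by 1.26 ± 0.28, while bag6-b had -1.09 ± 0.31 and was not called with PGC replicate 3 left out (-0.96), nor with endoderm replicate 1 or 3 left out (-0.92 and -1.04). Thus cct5 differed in sign from the higher chaperonin gene models of the v9.1 table. The chaperonin subunits cct3 (0.35 ± 0.31) and cct7 (-0.05 ± 0.43) did not pass. calr, the gene of the lectin calreticulin, had 510 ± 39.9 CPM in PGCs and 509 ± 117 CPM in endoderm (0.00 ± 0.15), and passed as higher at 0.71 when scaling followed level. The more counted hspd1 gene model, for mitochondrial Hsp60, had 228 ± 47.7 CPM in PGCs and 208 ± 21.8 CPM in endoderm (0.13 ± 0.18, and 0.53 with a call under that scaling). prdx1 had 0.64 ± 0.37 and sod2, the mitochondrial superoxide dismutase, 2.07 ± 1.82, and neither passed.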

How the data were processed

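RNA of PGCs and endoderm (3 libraries each) was made into ScriptSeq v2 libraries from 1 ng aliquots of rRNA-depleted RNA and read as paired ends on an Illumina HiSeq, per the labels' protocols. The tools listed in the submitters' processing notes are edgeR 3.12.0, HTSeq 0.6.0, TopHat2 2.1.0, SAMtools 1.2 and Bowtie2 2.2.6. Settings, genome build and strand use were not given in these sources, so overlapping and antisense genes are uncertain. The deposited tables hold whole-number read counts per gene model, with no total under 150. The deposited normalized signal columns, scaled by the authors per library, were not tested.

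The test of counts was edgeR 4.0.16 (R 4.3.3, glmQLFTest, TMM, two-sided, Benjamini-Hochberg at 0.05 over the table); filterByExpr (minimum count 10, minimum total 15) removed 0 gene models. CPM use TMM effective library sizes. Pairs of gene models were tested by an interaction term. Of the symbols, 80 of 83 were in the RefSeq gene table (Xenopus_laevis_v10.1), used for names only. The members and lists were chosen with earlier results of these data known. Named genes were a set of central chaperones and regulators, the largest calls per compartment over 5 CPM on average without overlap, and the most different pairs; the remaining called gene models were named after their values were seen. Alternatives were DESeq2 1.42.0 (Wald test, size factors), total-count scaling, lowess offsets (scaling that follows expression level), a replicate block, other low-count filters, leaving out 1 library at a time, summed gene models, a 2-fold limit and the v7.1 table. The match of v7.1 to v9.1 counts and the medians in 10 bins of level were added after seeing the data. Steps were tested on simulated data. Deviations from group means in PGC and endoderm libraries of the same replicate number correlated at 0.0132, 0.0026 and -0.0132. Over all combinations of replicate numbers the correlations were -0.021 to 0.013. Depth was 9.94 to 28.3 M counts, and sparse genes are imprecise.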

Additional observations from a re-analysis of the deposited data

How the results depend on the processing

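Of the 38 calls, 16 held in all 13 settings run on the v9.1 gene models, and 14 were lost in a fit that left out 1 library. The 13 include a fit without the low-count filter. Since this filter removed 0 gene models, that fit repeats the main one and could lose no call. Uncalled values changed sign in 32 cases. Total-count scaling gave 1117 lower gene models in all, and of the members 31 higher, 17 of them cytosolic and 1 mitochondrial, with 0 mitochondrial and 1 redox lower; the other list had 27 higher. Scaling that followed expression level gave 8 lower members, 3 of them cytosolic and 2 redox, and 13 higher ER, 0 higher redox and 2 higher stress gene models. It reversed hspa8 (0.55 and 0.27), hsp90ab1 Xelaev18026411m (0.20), dnaja2 Xelaev18022770m (0.027), p4hb (0.080 and 1.06), canx (0.53) and txnrd3 (0.037), and total-count scaling turned p4hb Xelaev18043753m to 0.31. DESeq2 size factors left 0 mitochondrial and 2 redox gene models lower, and the DESeq2 Wald test called 1 stress regulator lower. Summed gene models gave 1 higher mitochondrial and 1 lower stress gene. At 2-fold, 9 members were lower. With v7.1, 11 members were lower, of which 1 was ER, 1 redox and 0 mitochondrial, with 0 redox higher, and the other list had 7 higher and 8 lower. The cause was not tested beyond the construction of each setting.

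The labels do not say that replicate numbers pair the samples. With a replicate block, 31 of the 38 calls held (lost were dnajc28, txnrd3, hspbap1, cct4, dnajc6 and the less changed gene models of txnip and cct6a), and 7 cytosolic gene models were higher, while 0 mitochondrial, 2 redox and 1 stress gene models were lower. Leaving out each library gave 6 to 10 higher cytosolic, 0 to 1 lower mitochondrial, 0 to 1 higher and 1 to 2 lower redox, 0 to 1 lower stress and 9 to 18 higher other gene models, 1 to 4 differing member pairs and 168 to 285 of all pairs.

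The share difference (PGC minus endoderm, percentage points) without the most counted gene model was -0.0652 for all members, -0.223 for cytosolic and 0.00587 for redox genes. In the v7.1 table it was -0.446 for cytosolic, 0.240 for ER, -0.0400 for redox and -0.00113 for stress genes.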
